A study of Mus musculus with 2 samples.

Results

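The 10 genes described here encode proteins with which a cell restrains or stimulates T cells and B cells at their point of contact: *Cd274*, *Pdcd1lg2*, *Cd80*, *Cd86*, *Icosl*, *Tnfsf4*, *Tnfsf9*, *Cd40*, *Lgals9* and *Pvr*. They were chosen by name from the 32285 genes of the deposited tables. Each was read as a level and as a share of cells in endothelial cells (ECs), against macrophages, dendritic cells, B cells, T cells, fibroblasts and putative tumor cells. The gate for ECs asked for at least 1 unique molecular identifier (UMI, 1 captured RNA molecule) of *Cdh5* or *Pecam1* and none of *Ptprc*. Left out were cells in clusters of another named class, in the Hmga2-high cluster described further on, or in unnamed clusters low in *Cdh5*. This kept 5171 of 5531 control and 2141 of 2400 Dnmt1iECKO cells of the gate. The cells came from tumors of YUMMER1.7, a mouse melanoma line with many mutations, and were sorted as live CD31+CD45- before 10x Genomics 3′ single-cell sequencing. There was 1 library for control mice, whose genotype is labelled C57BL/6 and whose methods give Cdh5-CreERT2 with a ZsGreen reporter, and 1 library for Dnmt1iECKO mice (Cdh5CreERT2;Dnmt1fl/fl;ZsGreenlsl/lsl). In the latter, tamoxifen given before the tumor cells removes *Dnmt1*, the maintenance DNA methyltransferase, from cells that express *Cdh5*, in all vessels and not in the tumor alone. Each library pooled tumors of 3 female mice of 8 to 10 weeks. The labels describe tumors under the skin of the shoulder, the study's text describes lung tumors after tail vein injection, and cells with lung epithelial markers were present in both libraries.

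CD28-family receptors on T cells read the members of the B7 family. *Cd80* and *Cd86* give the stimulus through CD28 and the brake through CTLA-4, *Cd274* (PD-L1) and *Pdcd1lg2* (PD-L2) bind PD-1 and restrain the T cell, and *Icosl* engages ICOS on activated and helper T cells. *Tnfsf4* (OX40 ligand) and *Tnfsf9* (4-1BB ligand) are tumor necrosis factor family ligands that prolong T cell responses, and *Cd40* is the receptor through which CD40 ligand on helper T cells activates the presenting cell. *Lgals9* (galectin-9) binds TIM-3 among other glycoproteins, and *Pvr* (CD155) is read by the inhibitory TIGIT and the activating CD226. Endothelial cells are not classical antigen-presenting cells, but vessels exposed to interferon gamma are known to place PD-L1 on their surface.

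On the GRCm38 build, with the GENCODE annotation of the deposited gene identifiers, *Cd274* (ENSMUSG00000016496) lies at chr19:29367455-29388095 and *Pdcd1lg2* (ENSMUSG00000016498) at chr19:29410919-29471161, both on the forward strand with 22823 bases between them. *Cd80* (ENSMUSG00000075122, chr16:38455561-38496335, forward) and *Cd86* (ENSMUSG00000022901, chr16:36603869-36666081, reverse) share a chromosome. *Icosl* (ENSMUSG00000000732) lies at chr10:78069302-78083913 on the forward strand, *Tnfsf4* (ENSMUSG00000026700) at chr1:161395409-161418410, forward, and *Tnfsf9* (ENSMUSG00000035678) at chr17:57105325-57107757, forward. *Cd40* (ENSMUSG00000017652) lies at chr2:165055627-165072948, forward, *Lgals9* (ENSMUSG00000001123) at chr11:78962974-78984946, reverse, and *Pvr* (ENSMUSG00000040511) at chr7:19903578-19921160, reverse. Antisense or other opposite-strand genes overlap *Cd274*, *Pdcd1lg2*, *Tnfsf9* and *Pvr*, and the 3′ kit keeps the strand of each read.

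Promoter windows from 250 bases before to 50 bases after the start were held by the RefSeq table (GRCm38.p6) for 5 of the 10 members. The windows of *Cd274*, *Icosl* and *Lgals9* are shown because CpG, the dinucleotide that DNMT1 copies methylation onto, and the interferon response motif, here GAAA and GAAA with any 2 bases between them, differ among these 3 genes. CG is in capitals for *Cd274* and *Icosl*, and the motif (read on either strand) for *Lgals9*, each written 5′ to 3′ on the gene's strand.
Cd274, chr19:29367188-29367487, forward: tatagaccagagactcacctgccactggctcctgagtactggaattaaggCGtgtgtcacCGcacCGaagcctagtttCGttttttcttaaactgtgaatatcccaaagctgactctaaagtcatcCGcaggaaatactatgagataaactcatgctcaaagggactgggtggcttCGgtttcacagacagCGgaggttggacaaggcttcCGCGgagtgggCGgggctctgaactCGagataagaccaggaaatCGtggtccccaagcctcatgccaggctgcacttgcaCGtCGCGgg
Icosl, chr10:78069118-78069417, forward: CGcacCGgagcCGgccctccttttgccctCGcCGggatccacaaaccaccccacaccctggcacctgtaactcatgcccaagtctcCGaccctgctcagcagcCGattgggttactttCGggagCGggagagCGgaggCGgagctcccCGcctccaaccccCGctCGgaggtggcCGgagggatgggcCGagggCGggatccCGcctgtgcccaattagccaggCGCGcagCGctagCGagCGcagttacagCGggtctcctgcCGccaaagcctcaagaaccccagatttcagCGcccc
Lgals9, chr11:78984875-78985174, reverse: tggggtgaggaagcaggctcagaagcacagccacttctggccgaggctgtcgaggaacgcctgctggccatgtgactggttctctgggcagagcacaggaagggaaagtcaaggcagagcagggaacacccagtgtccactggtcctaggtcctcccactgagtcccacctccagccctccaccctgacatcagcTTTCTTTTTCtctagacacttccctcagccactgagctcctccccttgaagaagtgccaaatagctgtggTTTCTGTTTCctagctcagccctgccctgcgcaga
The *Cd274* window held 15 CpG and 65.4% of the 32851 promoters in the table held fewer. The *Icosl* window held 26, with 83.1% of promoters below it, while that of *Lgals9* held 4, and *Pdcd1lg2* and *Cd80* held 3 each, against a median of 7 over all promoters. The interferon response motif occurred at 2 places in the *Lgals9* window, starting at -55 and at 15 relative to the start, in none of the other 4 windows, and in 3.44% of all promoters. The motif TTCNNNGAA, searched on both strands, was in none of the 5 windows and in 8.30% of all promoters. No methylation was measured in these cells, and a match of letters is a description of the window and not of binding.

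The libraries held 9301 control and 9522 Dnmt1iECKO cells with 123830489 and 141433493 UMIs, and 29 cell barcodes occurred in both. After filters, 5171 of 7736 control cells and 2141 of 7807 Dnmt1iECKO cells were ECs, with a median of 9823 and 9949 UMIs each. Cells of immune-like clusters made up 15.6% of the control and 55.1% of the Dnmt1iECKO cells despite the CD45- sort. Of the 9 endothelial markers all were present in the ECs of both libraries, with *Cdh5* in 96.7% and 96.4% of cells, and their sum was 12011 CPM in control and 10923 CPM in Dnmt1iECKO, with 2 of the 9 higher in the latter. *Dnmt1* itself was at 50.5 UMIs per 1000000 UMIs of the class (CPM) in control and 27.1 CPM in Dnmt1iECKO ECs, a log2 ratio of -0.90 (-1.02 to -0.78); a 3′ read need not lie in the deleted part of the gene. Cells were named from marker lists, and a cluster with high *Hmga2* (126 control and 200 Dnmt1iECKO cells) stands in for the putative tumor cells. It is called Hmga2-high, since *Hmga2* was at 1878 and 1761 CPM there while the melanocyte genes *Dct*, *Tyrp1* and *Mlana* were at 0 in both libraries and *Pmel* had 7 UMIs in each. Of the other genes of the 14-gene tumor list, *Igf2bp2* (133 and 128 CPM, against 0.537 and 0.910 CPM in ECs) and *Axl* (91.6 and 95.5 CPM, against 3.24 and 4.21 CPM) were high there, and *Mitf* (27.9 and 33.1 CPM) was near its level in ECs (26.2 and 21.7 CPM). *Igf2bp3* was lower (1.12 and 0.983 CPM) than in ECs (3.46 and 3.22 CPM). *Sox10* and *Tyr* had 0 UMIs in control and 1 in Dnmt1iECKO, and *Igf2bp1*, *Ngfr* and *S100b* were at most 1.21 CPM. With 1 library per group no test between genotypes was possible and none was made between classes, whose values are given in both libraries, and every interval below is a 95% interval for counting error only, which leaves out differences between cells, mice and libraries.

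In each library ECs held over 1000 UMIs of *Lgals9*, *Cd274*, *Pvr* and *Cd40*, and under 30 of *Cd80*, *Cd86*, *Pdcd1lg2* and *Tnfsf4*. Against macrophage-like cells, ECs were higher in both libraries for 2 members, *Lgals9* and *Pvr*, and lower for the other 8. Among the 13834 genes with at least 100 UMIs over these cells, 63.4% were higher in ECs in both libraries and 30.6% lower. The members' counts take in those under that minimum (9 of the 10 reached it against macrophage-like cells and 8 against fibroblast-like cells), so the shares of all genes have a different base. Against dendritic cell-like cells 1 member (*Lgals9*) was higher and 9 were lower, where 57.1% and 33.0% of all genes were. The count was 3 higher and 6 lower against B cell-like cells (55.7% and 33.9% of all genes), and 4 higher and 5 lower against T cell-like cells (51.3% and 40.1%). It was 3 higher and 6 lower against fibroblast-like cells (54.7% and 35.2%), and 4 higher and 4 lower against Hmga2-high cells (52.8% and 41.0%). Levels of different genes are not ranked against each other here, as a UMI count is per molecule captured at the 3′ end.

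**Figure D1:**
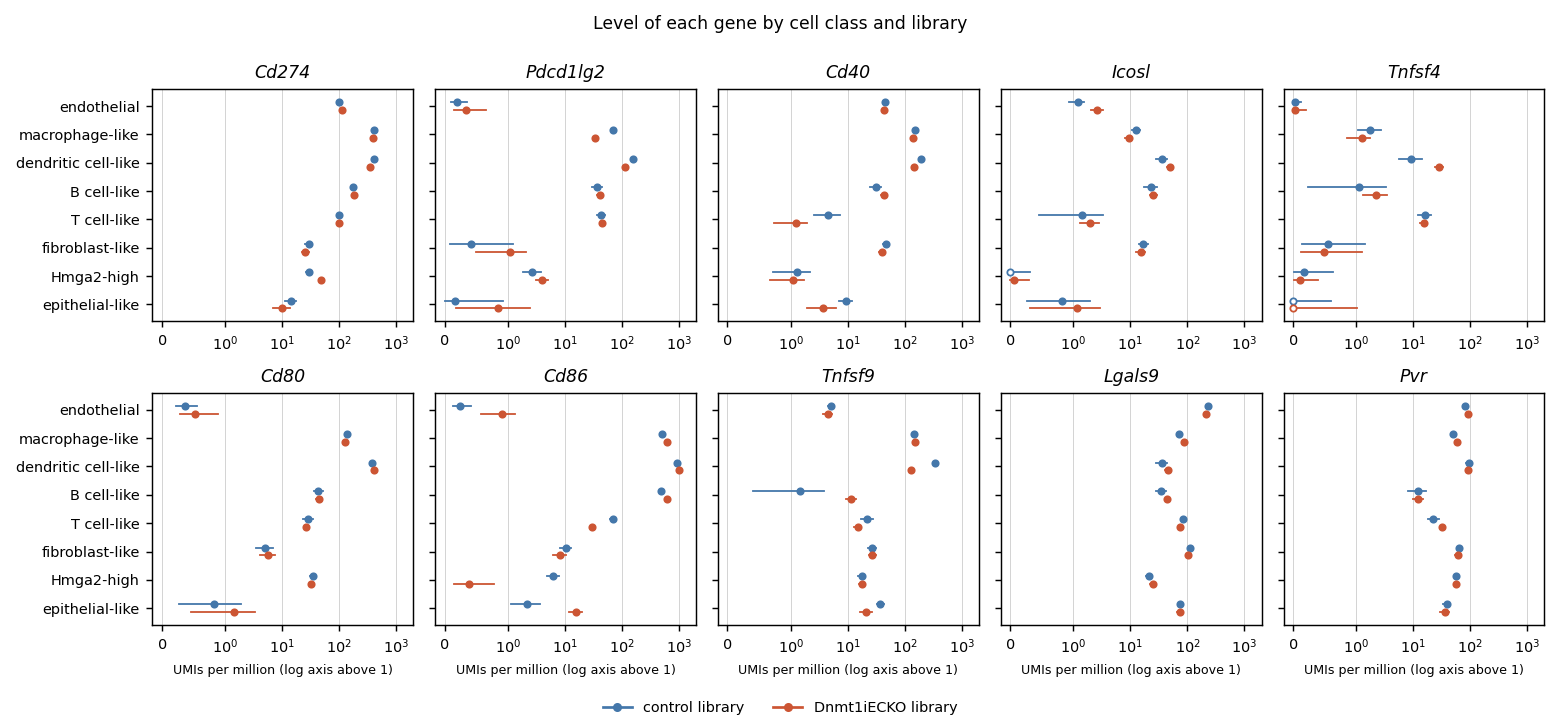
Level of each gene (CPM, log axis above 1) in 8 cell classes of the control library (blue) and the Dnmt1iECKO library (orange), with 95% Poisson intervals and open circles for a count of 0. ECs had the highest Lgals9 (228 and 212) and lay far below the myeloid classes for Cd80, Cd86 and Pdcd1lg2.

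*Lgals9* was the member with the highest rank in ECs. It stood at 228 CPM (224 to 232) in control ECs and 212 CPM (207 to 218) in Dnmt1iECKO ECs, and was detected in 75.4% and 72.1% of them. After thinning every cell to 2000 UMIs the shares were 33.5% and 31.8%, against 4.76% and 1.5% in Hmga2-high cells, the class with least *Lgals9*, whose median depth was 80454 and 86370 UMIs before thinning. ECs ranked first of the 13 classes with at least 50 cells in control and first of 14 in Dnmt1iECKO. The class nearest to them was neutrophil-like cells in control (183 CPM, 144 to 230, from 75 UMIs, 17 of them in 1 cell) and immature thymocyte-like cells, which were found in the Dnmt1iECKO library only, in the latter (210 CPM), and ECs lie within the counting interval of that neighbor in either library. Macrophage-like cells held 72.1 and 88.0 CPM, so that ECs were 3.16-fold (2.94 to 3.40) and 2.41-fold (2.30 to 2.53) above them. The lowest level was in Hmga2-high cells, with 21.1 and 24.5 CPM. ECs supplied 77.8% of all *Lgals9* UMIs in control cells and 41.3% in Dnmt1iECKO cells, where ECs were a smaller part of the library.

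*Pvr*, the ligand shared by TIGIT and CD226, was also high in ECs. Control ECs held 79.4 CPM (77.1 to 81.7) and Dnmt1iECKO ECs 90.2 CPM (86.6 to 93.9). It was detected in 35.0% and 36.2% of ECs, and after thinning in 11.2% and 12.3%, against 3.70% and 0.614% of natural killer-like cells at median depths of 6191 and 6196 UMIs. ECs came second to dendritic cell-like cells in control (95.5 CPM), and ranked 3 in Dnmt1iECKO behind dendritic cell-like (91.6 CPM) and immature thymocyte-like cells (91.0 CPM), a difference within the counting intervals. ECs were above macrophage-like cells (50.4 and 58.2 CPM) by 1.57-fold (1.44 to 1.72) and 1.55-fold (1.45 to 1.65). Fibroblast-like cells (63.7 and 60.2 CPM) and Hmga2-high cells (56.3 and 56.7 CPM) followed, and B cell-like cells were low (11.9 and 12.2 CPM). Macrophage-like cells were not uniform: the cluster led by *C1qa* held 70.3 and 74.9 CPM, and the cluster led by *Kcnip4*, with *Chil3* and *Ear2*, 11.7 and 9.01 CPM.

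*Cd274* stood at 102 CPM (99.3 to 104) in control ECs and 115 CPM (111 to 119) in Dnmt1iECKO ECs. It was detected in 34.3% and 35.1% of ECs, and in 11.6% and 12.1% after thinning. In epithelial-like cells, taken as the baseline of free RNA, the thinned share was 1.24% and 2.48% at median depths of 20769 and 24246 UMIs. ECs ranked 6 of the classes in both libraries. Macrophage-like cells held 416 and 403 CPM, 4.09-fold (3.93 to 4.25) and 3.502-fold (3.36 to 3.65) the level of ECs, and dendritic cell-like cells held 406 and 354 CPM. T cell-like cells lay beside ECs at 101 and 102 CPM, B cell-like cells at 176 and 186 CPM, fibroblast-like cells at 29.6 and 25.5 CPM, and Hmga2-high cells at 29.4 and 47.5 CPM, where 1 Dnmt1iECKO cell gave 186 of 869 UMIs. ECs, the most numerous class, gave 43.8% of the *Cd274* UMIs of control cells and 13.7% of those of Dnmt1iECKO cells.

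*Cd40*, the receptor by which helper T cells activate presenting cells, was at 45.2 CPM (43.5 to 47.0) in the ECs of the control library and at 43.6 CPM (41.1 to 46.2) in those of Dnmt1iECKO, and was found in 28.9% and 28.2% of cells (7.85% and 6.91% after thinning). The epithelial-like baseline was 9.22 and 3.69 CPM, with a thinned share of 0.415% and 0%, where 0 of the thinned Dnmt1iECKO cells, read as up to 3 counts, stands for up to 2.48%. Dendritic cell-like cells held 197 and 148 CPM and macrophage-like cells 150 and 141 CPM. Among macrophage-like cells, *Cd40* was highest in the cluster led by *C1qa* (224 and 188 CPM), while the cluster led by *Kcnip4* held 3.99 and 5.28 CPM, below ECs. Fibroblast-like cells (46.7 and 39.6 CPM) and B cell-like cells (30.8 and 43.0 CPM) were of the same order as ECs, and T cell-like cells were low (4.51 and 1.24 CPM).

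The classical CD28 ligands were myeloid and B cell genes in these libraries. *Cd86* had 15 UMIs in all control ECs (0.252 CPM) and 24 in all Dnmt1iECKO ECs (0.910 CPM). In dendritic cell-like cells it stood at 941 and 1027 CPM, in macrophage-like cells at 506 and 612 CPM, and in B cell-like cells at 491 and 617 CPM. Within the B cell-like class the cluster led by *Bank1* held 864 and 850 CPM of *Cd86* and the cluster led by the antibody chain gene *Jchain* 26.7 and 86.7 CPM. *Cd80* had 22 and 14 UMIs in ECs, and ECs had the lowest *Cd80* level of all classes in both libraries (0.369 and 0.531 CPM). It was highest in neutrophil-like cells (452 and 565 CPM) and dendritic cell-like cells (378 and 408 CPM), and stood at 136 and 129 CPM in macrophage-like cells. Hmga2-high cells carried *Cd80* at 34.3 and 32.8 CPM, detected in 78.6% and 74.0% of these deep cells and in 7.94% and 5.50% after thinning (0.0413% and 0.202% of thinned ECs), with little *Cd86* beside it in Dnmt1iECKO (0.382 CPM) and 71 of 73 control *Cd86* UMIs in 1 cell.

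*Pdcd1lg2*, the neighbor of *Cd274*, did not share its presence in ECs: 12 control and 9 Dnmt1iECKO UMIs gave 0.201 and 0.341 CPM. Dendritic cell-like cells held 160 and 113 CPM. T cell-like cells held 42.9 and 45.7 CPM, and B cell-like cells 36.8 and 41.0 CPM. In macrophage-like cells it stood at 69.2 CPM in control and 33.9 CPM in Dnmt1iECKO, a log2 ratio of -1.03 (-1.17 to -0.89) with at most 63 of the 751 control UMIs in 1 cell, and it passed the 1.5-fold line there, as did 3.84% of the 10571 genes with at least 100 UMIs in these cells in that direction and 3.37% in the other. The gap sat in the cluster led by *C1qa* (99.7 and 42.3 CPM) and not in that led by *Kcnip4* (11.1 and 11.3 CPM). In dendritic cell-like cells the log2 ratio was -0.49 (-0.68 to -0.30).

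The tumor necrosis factor family ligands were rare in ECs. *Tnfsf9* had 300 UMIs in 119 control ECs (5.04 CPM, 4.48 to 5.64) and 119 UMIs in 47 Dnmt1iECKO ECs (4.51 CPM, 3.74 to 5.40), so that most ECs had none and a few had several. Macrophage-like cells held 148 and 151 CPM of *Tnfsf9*, again from the cluster led by *C1qa* (215 and 194 CPM) more than from that led by *Kcnip4* (8.56 and 10.4 CPM). Pericyte or smooth muscle-like cells held 93.0 and 63.0 CPM and fibroblast-like cells 26.8 and 27.1 CPM. In dendritic cell-like cells *Tnfsf9* was 337 CPM in control and 129 CPM in Dnmt1iECKO, a log2 ratio of -1.38 (-1.53 to -1.24), past the 1.5-fold line as were 3.36% of the 7346 genes there in that direction and 5.98% in the other. *Tnfsf4* had 2 control and 1 Dnmt1iECKO UMIs in all ECs, at or under the 3 counts below which no ratio is given. It was found in T cell-like cells (15.8 and 15.3 CPM), with its highest level in the cluster led by the cytotoxic granule gene *Nkg7* (42.1 and 38.2 CPM), and in dendritic cell-like cells at 9.24 CPM in control (21 UMIs) and 28.0 CPM in Dnmt1iECKO (160 UMIs, 23 of them in 1 cell).

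*Icosl* was low in ECs and highest in dendritic cell-like (35.2 and 49.3 CPM) and B cell-like cells (22.7 and 25.0 CPM), followed by fibroblast-like cells (16.8 and 15.2 CPM) and macrophage-like cells (12.6 and 9.30 CPM). Control ECs held 71 UMIs in 58 cells (1.19 CPM, 0.931 to 1.503) and Dnmt1iECKO ECs 69 UMIs in 53 cells (2.62 CPM, 2.04 to 3.31). Epithelial-like cells gave 0.823 and 1.13 CPM from 5 and 4 UMIs, with intervals of 0.267 to 1.92 and 0.309 to 2.90 CPM. The level of all ECs lay within the wide interval of that baseline in both libraries. The baseline was not the lowest class, as Hmga2-high cells in Dnmt1iECKO were at 0.0546 CPM. ECs ranked 9 of 13 classes in control and 8 of 14 in Dnmt1iECKO.

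Between the genotypes, the abundant members of ECs moved little and the sparse ones carried the larger ratios. Of the 6 members with at least 100 UMIs in ECs over both libraries, 1 (*Icosl*) was at least 1.5-fold higher in Dnmt1iECKO, where 4.40% of 12666 genes were, and 0 were at least 1.5-fold lower, where 2.28% were. *Cd274* was 1.13-fold higher (log2 ratio 0.18, 0.11 to 0.24) and *Pvr* likewise higher by a log2 ratio of 0.18 (0.11 to 0.26). *Lgals9* was lower by a log2 ratio of -0.10 (-0.15 to -0.06). *Cd40* gave -0.05 (-0.15 to 0.05) and *Tnfsf9* gave -0.16 (-0.48 to 0.15), both with 0 inside the interval. As the libraries hold the EC classes in different shares, the class levels were also combined with the class sizes of the control library: *Cd274* then gave 0.17, *Pvr* 0.12 and *Lgals9* -0.07. *Cd40* turned to 0.05 with these weights and *Tnfsf9* gave -0.67, past the 1.5-fold line, and *Tnfsf9* turned to 0.24 with only the clusters named endothelial-like. With the gate alone, without taking out cells by cluster, *Cd274* gave 0.06, *Pvr* 0.08 and *Lgals9* -0.27, while *Cd40* gave -0.26 (-0.35 to -0.16) and *Tnfsf9* turned to 0.20 (0.01 to 0.38), neither with 0 inside the interval.

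*Icosl* had the largest ratio of these 6, at log2 1.13 (0.64 to 1.63). Both levels lie within the wide interval of the epithelial-like baseline given above. With the class sizes of the control library it was 0.68. Vein-like ECs supplied 25 of the 71 control and 36 of the 69 Dnmt1iECKO UMIs, and they were 166 of 5171 control ECs and 156 of 2141 Dnmt1iECKO ECs. Within vein-like ECs the level was 9.002 and 14.0 CPM, above the upper limits of the epithelial-like baseline, with a log2 ratio of 0.63 (-0.14 to 1.43). Over ECs with at least 3 vein markers after thinning it was 0.77 (0.06 to 1.49), from 32 and 39 UMIs, and over those with 3 general capillary markers 0.90 (0.27 to 1.52), from 52 and 41 UMIs. It was -0.77 (-2.82 to 1.204) with 3 venule markers, from 6 and 5 UMIs, and -1.57 (-4.84 to 0.76) with 3 interferon gamma activated markers, from 8 and 2 UMIs. *Cd86* (15 and 24 UMIs) gave 1.85 (0.86 to 2.89), *Pdcd1lg2* (12 and 9) 0.76 (-0.67 to 2.13) and *Cd80* (22 and 14) 0.52 (-0.56 to 1.56). Summed markers of other classes moved beside these sparse genes: in ECs, 9 of 9 T cell markers were higher in Dnmt1iECKO (1.63 and 8.00 CPM in sum), 8 of 9 macrophage markers (15.6 and 23.02 CPM), 5 of 6 neutrophil markers (2.10 and 9.67 CPM) and 5 of 6 B cell markers (1.41 and 1.90 CPM), and no marker of these 4 lists was at 0 in either library. The dendritic cell list stood at 156 and 153 CPM, with *Cd209a* at 0 in Dnmt1iECKO. Of 8 monocyte markers 7 were higher (868 and 929 CPM), and of 7 pericyte or smooth muscle markers 6 (94.5 and 106 CPM). Of 8 fibroblast markers 6 were higher (48.3 and 55.4 CPM), of 5 platelet markers 4 (123 and 187 CPM), and of 9 epithelial markers 0 (571 and 441 CPM). Their part in the ratios of *Icosl*, *Cd86*, *Pdcd1lg2* and *Cd80* was not tested.

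**Figure D2:**
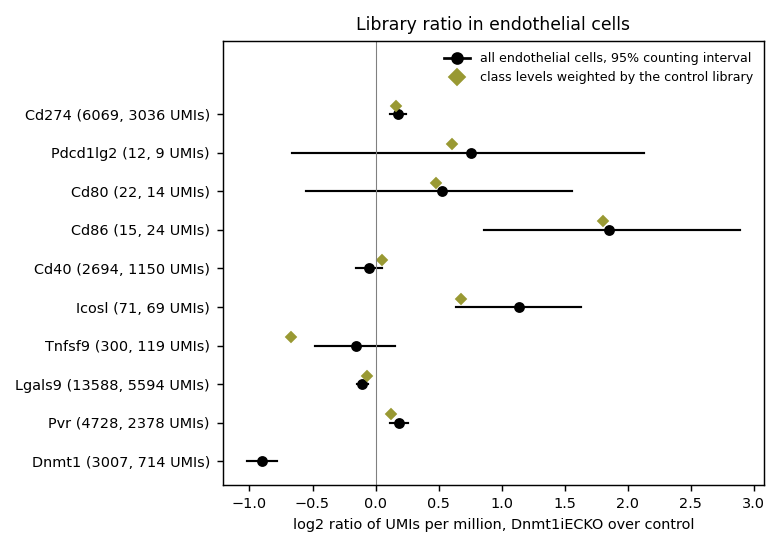
Log2 ratio of CPM in ECs, Dnmt1iECKO over control, with UMIs per library after each name; circles with bars are all ECs with the 95% counting interval, diamonds are class levels weighted by the control library. Cd274 and Pvr lie at 0.18, Icosl at 1.13, and Dnmt1 at -0.90.

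Other cell classes had ratios of their own for the same genes. *Cd274* was lower in Dnmt1iECKO dendritic cell-like cells (-0.20, -0.31 to -0.08) and monocyte-like cells (-0.27, -0.44 to -0.10), and higher in neutrophil-like cells (0.66, 0.33 to 0.99), which numbered 55 and 279. The dendritic cell-like class joined a cluster led by *Ccl17* (85 and 204 cells) and one led by *Siglech* (3 and 29 cells). The part of these shares in its ratios of *Cd274*, *Pdcd1lg2* and *Tnfsf9* was not tested. Macrophage-like cells gave -0.05 for *Cd274*, with 0 inside the interval, 0.27 (0.23 to 0.32) for *Cd86* and 0.29 (0.17 to 0.41) for *Lgals9*. Their clusters took different shares in the libraries, with 122 and 247 cells in the one led by *Kcnip4* and 228 and 688 in the one led by *C1qa*. B cell-like cells were higher for *Cd86* by 0.33 (0.24 to 0.42), although the cluster led by *Bank1* by itself stood at 864 and 850 CPM. *Tnfsf9* in B cell-like cells (1.49 and 11.3 CPM) rested on 1 Dnmt1iECKO cell with 67 of 94 UMIs.

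Within ECs, the levels of the 4 abundant members were read in clusters and, as an alternative, in classes defined by at least 3 markers in a thinned cell, where a cell can fall into several classes. Aerocyte and general capillary cells are both lung capillary types. Aerocyte-like cells held *Cd274* at 123 CPM (117 to 128) in the control library and at 134 CPM (125 to 144) in Dnmt1iECKO, and general capillary-like cells at 27.2 CPM (23.6 to 31.2) and 26.7 CPM (20.96 to 33.6). By 3 markers the gap was smaller, with 119 and 133 CPM in aerocytes (1384 and 452 cells) and 93.01 and 111 CPM in general capillary ECs (3323 and 1319 cells). Its highest level was in interferon gamma activated-like ECs, at 192 and 208 CPM, and its lowest in artery-like ECs in control (7.67 CPM from 5 UMIs) and lymphatic-like ECs in Dnmt1iECKO. By 3 markers interferon gamma activated ECs held 358 and 396 CPM, while artery ECs, at 73.8 and 94.2 CPM, were not low. Vein-like ECs were at 52.9 and 77.6 CPM, a log2 ratio of 0.55 (0.24 to 0.87), with 52 of the 200 Dnmt1iECKO UMIs in 1 cell. By 3 markers vein ECs were at 81.4 and 106 CPM (0.38, 0.18 to 0.58). Venule ECs by 3 markers were at 104 and 176 CPM, a log2 ratio of 0.75 (0.36 to 1.16). These rest on 76 control and 182 Dnmt1iECKO UMIs, 57 of the latter in 1 cell. Proliferating-like ECs were at 96.9 and 129 CPM, a log2 ratio of 0.41 (0.13 to 0.68). By 3 markers proliferating ECs were at 107 and 135 CPM (0.34, 0.02 to 0.65), with 57 of the 162 Dnmt1iECKO UMIs in 1 cell. The members and *Dnmt1* were left out of the genes that formed the 14 classes of ECs.

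*Cd40* was highest in the ECs of an unnamed class led by *Ifit1*, an interferon response gene, together with *Gch1*, *Socs3* and *Ripk1*: the 1205 control cells held 70.4 CPM (66.2 to 74.8) and the 433 Dnmt1iECKO cells 77.8 CPM (70.4 to 85.7). Aerocyte-like (36.9 and 38.5 CPM), general capillary-like (34.8 and 37.0 CPM) and interferon gamma activated-like ECs (30.2 and 32.0 CPM) lay near each other in the clusters, and vein-like ECs were at 24.1 and 22.5 CPM. Proliferating-like ECs held 52.2 CPM in control and 32.3 CPM in Dnmt1iECKO, a log2 ratio of -0.69 (-1.19 to -0.21). Proliferating ECs by 3 markers held 58.0 and 27.6 CPM (-1.07, -1.69 to -0.49), from 100 and 33 UMIs. Vein ECs by 3 markers gave -0.44 (-0.78 to -0.12). In aerocyte, general capillary, artery, venule and type I interferon ECs by 3 markers the interval held 0. By 3 markers, interferon gamma activated ECs held 81.1 and 54.7 CPM, a log2 ratio of -0.57 (-0.87 to -0.27), so that their level of *Cd40* depends on how they are defined. Type I interferon ECs by 3 markers held 72.4 and 77.2 CPM. They are not the same set of cells as the unnamed class led by *Ifit1*. The ratio in interferon gamma activated ECs also depends on which cells the random thinning picks. The thinning used for the marker groups below gave 71.5 and 69.2 CPM over full UMIs (249 and 136). Over its thinned UMIs the log2 ratio was -0.07 (-1.03 to 0.84).

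Among the clusters, *Pvr* was higher in the vein-like, interferon gamma activated-like and unnamed Ifit1-led classes than in those named aerocyte-like and general capillary-like. Vein-like ECs held 125 CPM (112 to 139) of it in control, 165 CPM (149 to 181) in Dnmt1iECKO, and the class led by *Ifit1* 127 and 156 CPM. Aerocyte-like (38.1 and 40.5 CPM) and general capillary-like ECs (32.5 and 30.0 CPM) were low. By 3 markers aerocytes held 36.9 and 35.5 CPM, but general capillary ECs 90.002 and 94.4 CPM, against 130 and 152 CPM in vein ECs. The ratio of the libraries was 0.39 (0.18 to 0.60) in vein-like ECs and 0.30 (0.18 to 0.42) in the class led by *Ifit1*. It was -0.28 (-0.47 to -0.09) in interferon gamma activated-like ECs (123 and 101 CPM), where the definition by 3 markers gave -0.12 (-0.32 to 0.08). ECs with 3 type I interferon markers, another set than the class led by *Ifit1*, gave 0.05 (-0.13 to 0.22). *Lgals9* stood between 197 and 277 CPM in the aerocyte-like, general capillary-like, interferon gamma activated-like and Ifit1-led classes of both libraries, and lymphatic-like ECs (33 and 16 cells) were lower, at 75.2 and 136 CPM.

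*Tnfsf9* was highest in artery-like ECs in Dnmt1iECKO, and *Icosl* in vein-like ECs of both libraries. In artery-like ECs *Tnfsf9* reached 32.2 CPM (19.9 to 49.2) from 21 UMIs in 53 control cells and 123 CPM (97.0 to 154) from 76 UMIs in 51 Dnmt1iECKO cells, a log2 ratio of 1.94 (1.22 to 2.71), with at most 13 UMIs in 1 cell. This was under the minimum of 100 UMIs of the call rule. Over all ECs with at least 3 artery markers after thinning (877 and 418 cells) *Tnfsf9* stood at 7.20 and 16.5 CPM. General capillary-like cells gave 0.133 and 0.366 CPM (1 UMI each), but ECs with 3 general capillary markers 4.48 and 2.11 CPM (186 and 37 UMIs) and those with 3 aerocyte markers 3.08 and 1.73 CPM. In the class led by *Ifit1* the ratio ran the other way, from 7.25 CPM (109 UMIs, 19 in 1 cell) to 1.33 CPM (7 UMIs), a log2 ratio of -2.45 (-3.80 to -1.36). ECs with 3 type I interferon markers, another set of cells, gave 0.27 (-0.71 to 1.19, from 34 and 15 UMIs). A class led by *Fabp4* held 95.6 and 49.0 CPM, and one led by *Kcnq5* with the pericyte gene *Cox4i2* 29.4 and 4.21 CPM, beside the 93.0 and 63.0 CPM of pericyte or smooth muscle-like cells; the part of pericyte RNA in these values was not tested. *Icosl* was highest in vein-like and artery-like ECs (7.67 and 9.72 CPM in the latter, from 5 and 6 UMIs) and at or under 1.71 CPM in aerocyte-like, general capillary-like, interferon gamma activated-like and Ifit1-led ECs.

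**Figure D3:**
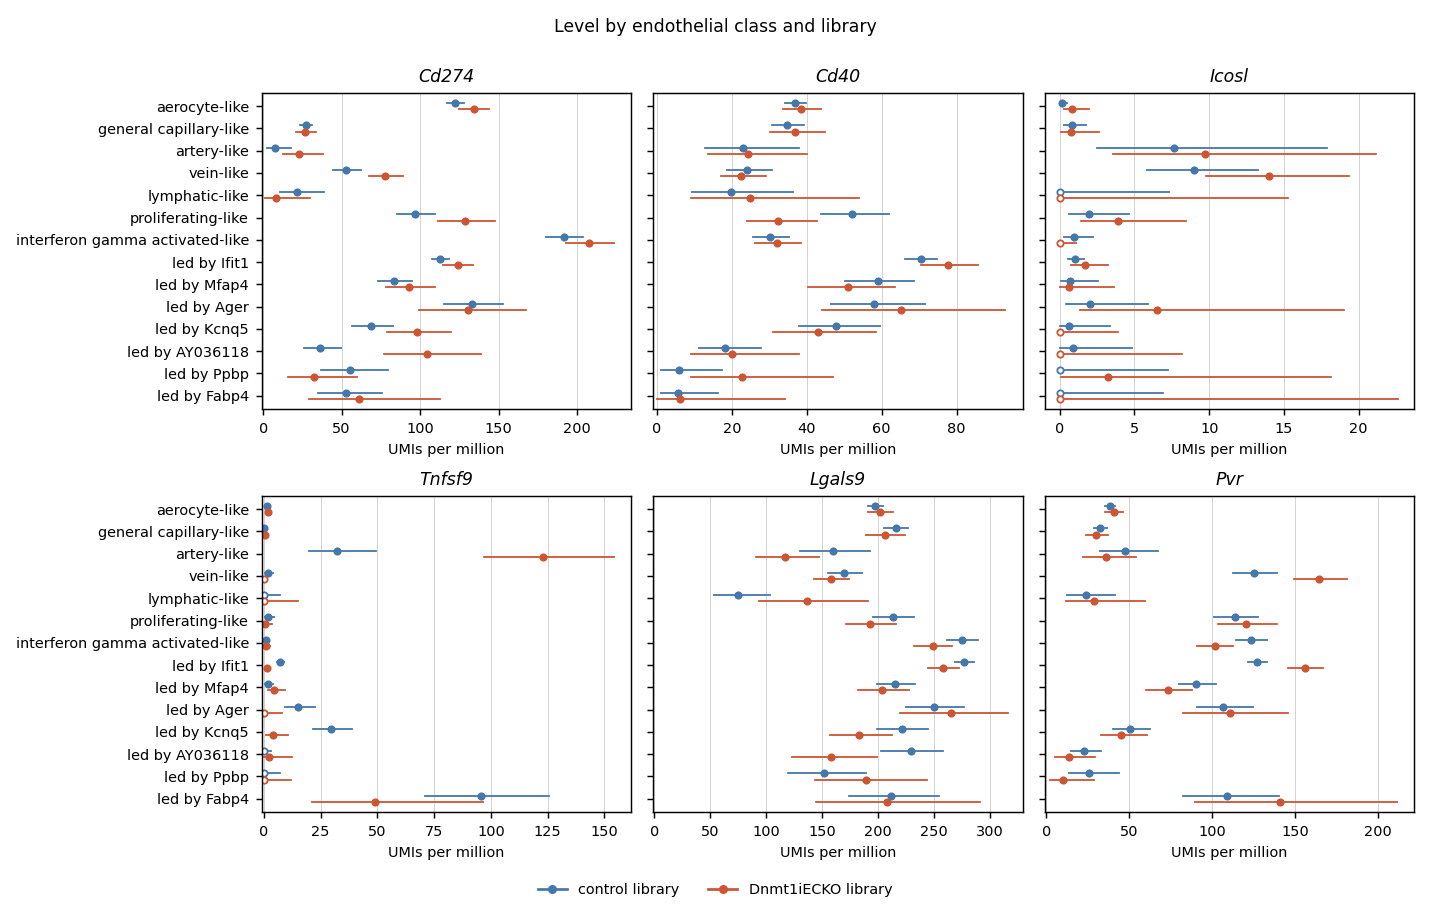
Level of 6 members (CPM) in 14 classes of ECs in the control (blue) and Dnmt1iECKO (orange) libraries, with 95% Poisson intervals and open circles for a count of 0. Cd274 peaked in interferon gamma activated-like ECs (192 and 208), Cd40 in the class led by Ifit1, and Icosl in vein-like ECs.

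*Cd274* was higher the more interferon markers a cell showed. ECs were thinned to 2000 UMIs and grouped by how many of 6 interferon gamma activated markers (*Cxcl9*, *Cxcl10*, *Ubd* and others) they had. In control ECs, *Cd274* went from 45.4 CPM with 0 markers (2710 cells) to 87.2, 166 and 308 CPM with 1, 2 and 3 or more (200 cells), a 6.78-fold difference (5.41 to 8.45) between the ends. In Dnmt1iECKO ECs it went from 46.8 CPM (1090 cells) to 85.1, 163 and 562 CPM (105 cells), a 12.01-fold difference (9.14 to 15.8). Over the thinned UMIs the first 3 groups had like *Cd274* levels in both libraries, with log2 ratios of 0.04 (-0.30 to 0.38), -0.04 (-0.39 to 0.30) and -0.02 (-0.46 to 0.40). Over full UMIs, cells with 1 marker held 98.5 and 99.9 CPM. Those with 2 markers were not alike, at 198 CPM (1318 UMIs) in control and 147 CPM (479 UMIs) in Dnmt1iECKO. With 3 or more markers the ratio was 0.87 (0.49 to 1.25), but a second random thinning, which picked 186 control and 130 Dnmt1iECKO cells with at least 3 markers, gave 358 and 396 CPM over their full UMIs, against 336 and 534 CPM over the full UMIs of the first. As cells with 0 markers held 57.7 and 55.5 CPM over their full UMIs, the 12.01-fold of Dnmt1iECKO is over 1.5 times what 396 over 55.5 CPM gives, and its size depends on which cells the thinning picks. Full depth moved with the groups too, from a median of 9864 to 13371 UMIs in control and from 9926 to 13585 in Dnmt1iECKO, and its part in these values was not tested.

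The other abundant members had smaller differences along the same markers. *Pvr* was 3.10-fold higher (2.32 to 4.09) with 3 or more than with 0 markers in control ECs. In Dnmt1iECKO ECs it was 1.52-fold (0.898 to 2.43, with 1 inside the interval), from 20 thinned UMIs with 3 or more markers. Over full UMIs, *Pvr* stood at 58.1 CPM with 0 and 149 CPM with 3 or more markers in control ECs. In Dnmt1iECKO ECs these levels were 68.6 and 122 CPM (239 UMIs with 3 or more). *Cd40* was 2.34-fold (1.56 to 3.42) higher in control and 2.52-fold (1.36 to 4.39) in Dnmt1iECKO ECs, and *Lgals9* 1.53-fold (1.26 to 1.85) and 1.54-fold (1.15 to 2.03). *Icosl* had 0 UMIs in the thinned cells with 3 or more markers of both libraries, with upper limits of 9.22 and 17.6 CPM. Thinned cells with 0 markers had 3 and 7 UMIs, and Dnmt1iECKO cells with 2 markers had 7 (17.1 CPM). Over full UMIs, *Icosl* with 3 or more markers was at 2.30 CPM (8 UMIs) in control and 0.509 CPM (1 UMI) in Dnmt1iECKO. With 0 markers it was at 0.878 and 2.71 CPM. Along 8 type I interferon markers (*Ifit1*, *Isg15* and others), *Cd274* was 4.203-fold (3.45 to 5.12) and 4.57-fold (3.48 to 5.98) higher with 3 or more than with 0, *Cd40* 2.62-fold (1.98 to 3.45) and 2.09-fold (1.22 to 3.46), *Pvr* 2.52-fold (2.02 to 3.12) and 1.69-fold (1.15 to 2.44), and *Lgals9* 2.00-fold (1.77 to 2.26) and 1.80-fold (1.44 to 2.25). The groups with 3 or more are not alike in strictness, with 3 of 6 markers for the former (200 and 105 cells) and 3 of 8 for the latter (547 and 176 cells), so the folds along the marker lists are not compared. Along the type I markers the log2 ratio of *Cd274* between the libraries was 0.48 (0.15 to 0.81) with 0 markers, -0.24 (-0.62 to 0.13) with 1, 0.64 (0.22 to 1.06) with 2 and 0.60 (0.25 to 0.95) with 3 or more. Over full UMIs the levels were 62.1 and 69.1 CPM with 0 markers, 107 and 89.4 with 1, 110 and 155 with 2, and 219 and 352 with 3 or more. The second thinning gave 214 and 274 CPM with 3 or more, a log2 ratio of 0.35 (0.23 to 0.48).

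**Figure D4:**
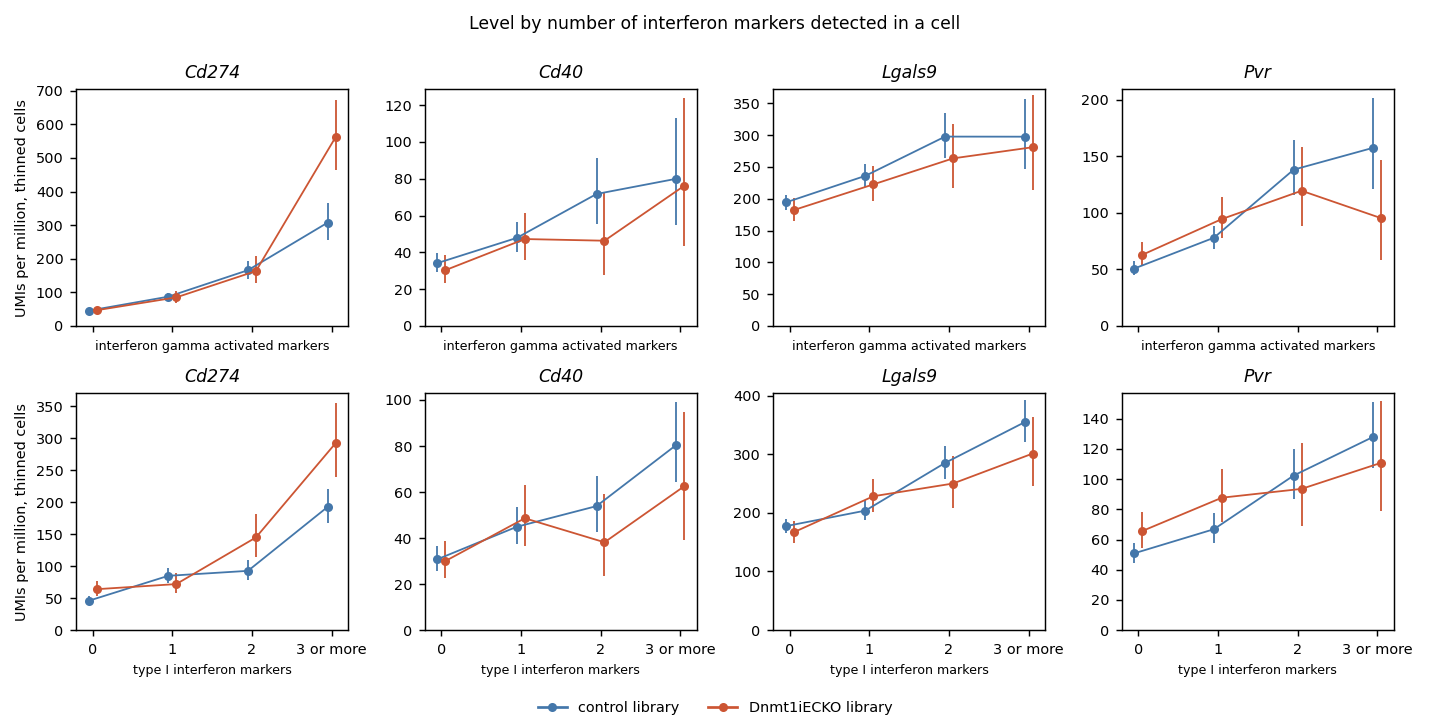
Level of Cd274, Cd40, Lgals9 and Pvr (CPM in ECs thinned to 2000 UMIs) by the number of interferon gamma activated (top) or type I interferon (bottom) markers detected in a cell, with 95% Poisson intervals. Cd274 in control ECs runs from 45.4 to 308 along the interferon gamma markers.

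Over all ECs taken singly, *Lgals9* was detected more often in cells with *Cd274* than in cells without it in both libraries, and *Cd40* in control ECs. In thinned control ECs, *Cd40* was detected in 11.6% (9.06 to 14.5) of cells with *Cd274* and 7.36% (6.60 to 8.19) of cells without it, and *Lgals9* in 39.0% (35.0 to 43.2) and 32.8% (31.4 to 34.2). In Dnmt1iECKO ECs, *Lgals9* was in 40.2% (33.9 to 46.7) of cells with *Cd274* and 30.6% (28.5 to 32.9) of those without, while *Cd40* was in 7.11% (4.198 to 11.1) and 6.88% (5.74 to 8.18). Within the 5 EC classes compared, the intervals for *Lgals9* in cells with and without *Cd274* overlapped in both libraries, while the share was higher with *Cd274* in every class and library except the interferon gamma activated-like ECs of Dnmt1iECKO (34.1% and 34.7%). In general capillary-like control ECs, for example, it was 41.9% of 31 cells with *Cd274* and 29.7% of 829 without, and in aerocyte-like control ECs 31.3% and 27.1%. At this depth 50.1% of control and 50.5% of Dnmt1iECKO ECs showed none of *Cd274*, *Cd40*, *Lgals9* and *Pvr*, 1.55% and 1.56% showed 3, and 4 control cells and 1 Dnmt1iECKO cell showed all 4.

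RNA of the receptors of these ligands was found in the T cell-like cells of the same libraries. *Pdcd1*, which encodes PD-1, stood at 327 and 262 CPM, with 708 and 609 CPM in the cluster led by *Nkg7*. *Ctla4* was at 1003 and 756 CPM, *Cd28* at 397 and 416, *Icos* at 803 and 618, *Tnfrsf4* (OX40) at 230 and 231 and *Tnfrsf9* (4-1BB) at 283 and 269. A cluster led by *Tnfsf8* held most of the helper-type receptors: *Icos* 1453 and 1291 CPM, *Tnfrsf4* 522 and 629 CPM, and *Cd40lg*, the ligand of *Cd40*, 135 and 105 CPM. For *Pvr*, the activating receptor *Cd226* was at 203 and 167 CPM and the inhibitory *Tigit* at 47.1 and 48.2 CPM in T cell-like cells. *Havcr2* (TIM-3), a receptor of *Lgals9*, was higher in dendritic cell-like cells (353 and 281 CPM) than in T cell-like cells (39.2 and 37.1 CPM). *Cd40lg* had 0 UMIs in the ECs of both libraries. B cell-like cells carried *Cd28* at 26.4 and 30.9 CPM and *Ctla4* at 111 and 62.1 CPM.

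Further ligands of T cells in ECs were read from a list of 18 genes. Of the 9 with at least 100 UMIs, 5 were higher and 4 lower in Dnmt1iECKO, with a median log2 ratio of 0.01 against -0.01 over all 12666 genes, of which 47.2% were higher. The members themselves gave 3 higher and 3 lower with a median of 0.06. Past the 1.5-fold line were *Tnfrsf14* (1.61 and 4.44 CPM, log2 ratio 1.46, 1.06 to 1.87), a ligand of BTLA that lymphocytes also express, and *Lgals3* (5.91 and 9.25 CPM, 0.65, 0.41 to 0.89), a galectin abundant in macrophages. *Cd47*, the signal against uptake by macrophages (627 and 536 CPM), gave -0.23 (-0.25 to -0.20), and *Nectin3* (190 and 146 CPM) gave -0.38 (-0.43 to -0.33). Of 15 receptor genes 5 had at least 100 UMIs in ECs, with 4 higher and 1, *Lag3* (5.14 and 3.75 CPM, -0.45, -0.79 to -0.12), lower, a median of 0.29, and *Ctla4* (0.89, 0.55 to 1.23) and *Tnfrsf9* (1.54, 1.13 to 1.94) past the line, beside the higher T cell markers given above, whose part was not tested. By 3 markers *Tnfrsf9* was highest in venule ECs (35 and 48 cells), at 57.6 and 60.8 CPM, a log2 ratio of 0.08 (-0.51 to 0.68), while the ratio was 1.15 (0.40 to 1.91) in vein, 1.32 (0.62 to 2.02) in general capillary, 1.39 (0.79 to 2.01) in interferon gamma activated, 2.07 (0.99 to 3.20) in type I interferon and 2.70 (1.39 to 4.26) in proliferating ECs. Aerocyte ECs gave 0.35 (-1.81 to 2.19) and artery ECs 0.92 (-0.66 to 2.46), both with 0 inside the interval. Of 11 regulators of these genes all had at least 100 UMIs, 9 were higher, the median was 0.06, and 1, the CD40 adaptor *Traf1*, passed the line (4.18 and 8.49 CPM, 1.02, 0.76 to 1.29). The interferon response factor gene *Irf1* (1167 and 1082 CPM) gave -0.11 (-0.13 to -0.09), and the other lower regulator, *Ifngr2*, gave -0.17 (-0.24 to -0.10). Among the higher regulators, *Relb* gave 0.43 (0.37 to 0.49), *Jak2* 0.21 (0.15 to 0.27) and *Nfkb2* 0.15 (0.05 to 0.26). *Cd47*, *Nectin3*, *Lag3*, *Irf1*, *Ifngr2*, *Relb*, *Jak2* and *Nfkb2* were picked after their values were seen.

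Across cell classes, the genes most like each member were found by Pearson's r of log2(CPM + 10) over 48 profiles (26 classes and clusters in the libraries that hold at least 50 of their cells); profiles of 1 library share its depth and free RNA, and clusters share cells with their class. *Cd86* was closest to *Cd83* (0.98), and *Cd80* to *Ebi3* (0.95), both known from activated antigen-presenting cells. *Pdcd1lg2* was closest to *Bcl2a1d* (0.94) and *Icosl* to *Pkib* (0.80). *Lgals9* had *Mark4* (0.88), *Snrk* (0.87) and *Pitpnc1* (0.86) nearest, *Pvr* *Stk19* (0.75), *Piezo1* (0.74) and *Slc30a7* (0.72), *Cd274* *Crlf2* (0.82), *Cd40* *Tnip2* (0.80), *Tnfsf9* *Tbc1d9* (0.84) and *Tnfsf4* *Dscam* (0.87). Among the members, *Cd86* ran with *Pdcd1lg2* (0.87), *Cd80* (0.85) and *Icosl* (0.75), while *Lgals9* ran against *Cd86* (-0.59), *Cd80* (-0.57), *Pdcd1lg2* (-0.56) and *Tnfsf9* (-0.52). *Cd274* and its neighbor *Pdcd1lg2* had r = 0.64, and *Cd274* and *Lgals9* -0.06.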

How the data were processed

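UMI counts per gene and cell were deposited as filtered 10x matrices, which, per the labels, the authors made with Cell Ranger 9.0.1 against mm10; nothing in them is normalized. Cells with fewer than 500 detected genes or more than 10% mitochondrial UMIs were left out, and Scrublet (in scanpy 1.11.5) removed an expected 0.4% of doublets per 1000 cells (289 control and 302 Dnmt1iECKO cells), in place of the DoubletFinder step of the study. All cells were clustered by the Leiden method (2000 variable genes, 30 components, 15 neighbors, resolution 1.0), and a cluster was named where at least 3 markers of a list were detected in 10% of its cells at a log2 fold of at least 1. The endothelial gate kept 5531 control and 2400 Dnmt1iECKO cells. Those in clusters of another named class, in the Hmga2-high cluster or in unnamed clusters low in *Cdh5* were taken out, which left 5171 and 2141. Low meant under 20% of the median *Cdh5* level of the endothelial-like clusters. These were clustered again after anchor integration in Seurat 5.3.0 (resolution 0.5). Of them, 1026 and 420 lay in clusters with markers of several classes and 425 and 215 in unnamed clusters.

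A level is the sum of a gene's UMIs over a class per 1000000 UMIs of that class in that library, with an exact Poisson interval. Ratios have the exact interval conditional on both counts, and shares the Clopper-Pearson interval, all at 95%. Shares were taken after each cell was thinned to 2000 UMIs (4839 control and 1982 Dnmt1iECKO ECs reached this depth). A count of 0 was read as up to 3 counts. As each genotype is 1 pooled library and cells are not replicates, no test was made. Over-all-gene shares cover genes with at least 100 UMIs in the cells compared. The ratio intervals were checked on simulated counts that held counting error only, and the thinning on cells of these libraries. Gating, doublet removal, clustering and naming were not simulated.

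Members were named throughout, further genes of the lists where they had at least 100 UMIs and a 1.5-fold ratio in ECs or encode a receptor of a member in lymphocytes, and for each member up to 3 genes with the most similar profile, among genes with at least 500 UMIs, over classes with at least 50 cells. The members and lists were chosen with earlier results of these data known, and the naming thresholds were set after the clusters were seen. Alternatives covered the filters, the gate, doublets, clustering, scaling and thinning. Software was Python 3.11.15, numpy 2.4.6, scipy 1.17.1, pandas 2.3.3, scikit-learn 1.9.0, matplotlib 3.10.9 and R 4.3.3.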

Additional observations from a re-analysis of the deposited data

Results flagged for a closer look

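The ratio of Dnmt1iECKO over control (log2) ran in opposite directions in different cell classes for several genes, with counting intervals on opposite sides of 0; the differences between classes were not tested. For *Tnfsf9* it was 1.94 in artery-like ECs, -2.45 in the ECs led by *Ifit1* and -2.80 in those led by *Kcnq5*; ECs with at least 3 type I interferon markers gave 0.27 (-0.71 to 1.19) and those with 3 artery markers 1.196 (0.73 to 1.66). For *Pvr* it was 0.30 in the ECs led by *Ifit1* and 0.39 in vein-like ECs, but -0.28 in interferon gamma activated-like ECs, where a definition by 3 markers gave -0.12 (-0.32 to 0.08). Type I interferon ECs by 3 markers, another set than the class led by *Ifit1*, gave 0.05 (-0.13 to 0.22). For *Lgals9* it was 0.86 in lymphatic-like ECs and negative in artery-like (-0.45), interferon gamma activated-like (-0.15), AY036118-led (-0.54), Ifit1-led (-0.10) and Kcnq5-led ECs (-0.27). By 3 markers it was 0.54 (-0.14 to 1.19) in lymphatic, -0.04 (-0.14 to 0.06) in artery and -0.03 (-0.14 to 0.08) in type I interferon ECs, each with 0 inside the interval. In interferon gamma activated ECs by 3 markers it was -0.22 (-0.35 to -0.08). Between broad classes, *Lgals9* gave -0.10 in ECs and 0.36 in B cell-like, 0.29 in macrophage-like and 0.50 in mesothelial-like cells. *Cd274* gave 0.18 in ECs, -0.20 in dendritic cell-like and -0.27 in monocyte-like cells. *Icosl* gave 1.13 in ECs and -0.44 in macrophage-like cells.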

How the results depend on the processing

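No paired analysis was possible because each genotype is 1 library, and for the same reason no library could be left out. Of 135 alternative values of the log2 ratios in ECs, 124 stayed inside the main counting interval. The 11 others were the following. With the gate alone, the ratio was 0.060 for *Cd274*, -0.26 for *Cd40*, 0.20 for *Tnfsf9*, -0.27 for *Lgals9* and 0.084 for *Pvr*. *Tnfsf9* gave 0.24 with only the clusters named endothelial-like, 0.22 with the coarser clustering of all cells and -0.67 with the class sizes of the control library, where *Cd40* gave 0.054. As a mean over cells of each cell's own level, *Cd274* gave 0.27 and *Pvr* 0.098. *Icosl* ranged from 0.68 to 1.23. The sign held in 15 of 15 alternatives for *Cd274*, *Pdcd1lg2*, *Icosl*, *Cd80*, *Cd86*, *Lgals9* and *Pvr*, in 13 for *Cd40* and in 9 for *Tnfsf9*. The count of 2 members above macrophage-like cells was 2 in all 12 alternatives. A minimum of 20 UMIs per gene moved the members' median log2 ratio to 0.18. Defining classes by at least 3 markers per thinned cell gave *Cd274* 358.5 and 396.2 CPM and *Lgals9* 337.1 and 290.3 CPM in interferon gamma activated ECs, and *Tnfsf9* 7.20 and 16.5 CPM in artery ECs, for control and Dnmt1iECKO. Without thinning and at 4000 UMIs, the shares of control ECs were 34.3% and 20.4% for *Cd274*, 28.9% and 14.9% for *Cd40*, 75.4% and 56.0% for *Lgals9*, and 35.0% and 20.3% for *Pvr*. In Dnmt1iECKO ECs they were 35.1% and 21.5%, 28.2% and 14.1%, 72.1% and 52.6%, and 36.2% and 21.6%. Deeper cells by construction show larger shares; for the ratios the cause was not tested. The stated minimum of 9000 detected genes left 0 ECs in either library and gives no value. Leaving out the cell with most UMIs of a gene, an alternative chosen after seeing the data, moved no ratio past its interval. *Pdcd1lg2*, *Tnfsf4*, *Cd80* and *Cd86* had at most 24 UMIs per library in ECs, and their ratios have wide intervals.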
